A study of Homo sapiens with 6 samples.

Results

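The genes described here encode the machinery that makes ribosomes, a set of 36 listed genes that begins with the transcription factor MYC and runs through nucleolar proteins, RNA polymerase I, the small nucleolar ribonucleoproteins (snoRNPs) and the assembly factors of both ribosomal subunits. They were found by name: each Ensembl transcript ID of the deposited count table was matched to its GENCODE gene, and rows of listed genes were taken. Of the 36, 32 had a row among the 22279 rows of the table and 31 had enough counts to be tested, out of 11712 tested rows. MYC itself, the nucleolar protein gene NCL and the 60S assembly genes NOP16 and WDR12 were not analysed here. The row for BOP1 (ENST00000569669) was listed at 0 in all 6 libraries, and no level is read from it. No value bears on MYC directly, and the 31 tested rows are called ribosome biogenesis genes below.

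RNA-seq libraries of LNCaP cells, an androgen-sensitive line established from a human prostate cancer, fall into 3 with an RB hairpin (shRB) and 3 with a control hairpin (shCON). Both groups spent 72 h in CDT, given in the labels as treatment for cell cycle arrest and called hormone deficient in the series text. One hairpin label is given per group, and the labels do not say whether replicates were separate cultures, so the hairpin, the cell population and RB loss cannot be told apart and p-values measure the spread between these libraries. The comparison asks what loss of RB, the retinoblastoma protein that restrains E2F transcription factors, does to the transcriptome in this state.

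Ribosome production starts in the nucleolus, where RNA polymerase I transcribes one long precursor of the ribosomal RNAs. Box C/D snoRNPs methylate that precursor, box H/ACA snoRNPs convert uridines to pseudouridine, and the U3 snoRNP with the small subunit processome folds and cuts it, before assembly factors carry the 40S and 60S subunits to the cytoplasm. Genes of this machinery are a classical target set of MYC, whose dimer with MAX binds the E-box CACGTG, and they are active in growing cells.

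RB1 mRNA stood at 5.83, 3.82 and 5.41 CPM in shRB 1 to 3, against 56.6, 52.7 and 54.7 CPM in shCON 1 to 3 (counts scaled to the TMM-adjusted library total). Every library matched its label. Total counts ran from 9780579 to 10898768 in shRB and from 6115310 to 20091488 in shCON. All 13 luminal prostate markers had counts, and in the fit below 4 were higher, 3 lower and 6 did not pass. HOXB13, which did not pass, was at 856 to 969 CPM in shRB and 988 to 1090 CPM in shCON. The 2 of smallest p were higher in shRB. SLC45A3 was at 125 to 140 CPM in shRB and 61.2 to 75.6 CPM in shCON. KLK2 was at 65.3 to 80.5 CPM in shRB and 35.3 to 37.8 CPM in shCON. Basal markers summed to at most 0.106 CPM in any shRB library and 0.638 CPM in any shCON library, with KRT5 at 0. The leukocyte marker PTPRC and the stromal marker PECAM1 were at 0 throughout, but other markers of these lists had counts. CD68 of the leukocyte list was at 4.92 to 5.2 CPM in shRB and 5.06 to 6.87 CPM in shCON. COL1A1 of the stromal list was at 11.7 to 15.3 CPM in shRB and 16.3 to 19.4 CPM in shCON. The library shRB 2 stood apart. Its deviation from the shRB mean followed transcript GC content (Spearman correlation of 0.694 over 11674 genes), against −0.508 in shRB 1 and −0.545 in shRB 3, and −0.512, 0.526 and −0.0873 in shCON 1 to 3. Counts of called genes for the whole set and the other pathway lists, and the main values that turn on shRB 2, are given with and without it. Other counts are given with all libraries only, unless stated.

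Of the 31 tested ribosome biogenesis genes, 7 rose in shRB, 0 fell and 24 did not pass at an edgeR adjusted p under 0.05. That is 22.6% of them higher, against 12.8% of all tested genes. Over all tested genes 12.5% were lower and 25.3% changed in either direction. The set and the pathway lists below were chosen with earlier results of these data known. Their shares against all tested genes are therefore a description and not a test. The changes were small. The median log2 fold change of the 31 genes was 0.19, against −0.01 over all tested genes, and the 7 that rose did so by 1.19 to 1.37 times, none of them by 2-fold. In 29 of the 31 the fold change was above 0, or 93.5%, against 49.0% of all tested genes. That number was 27 without shRB 2, where the median over all tested genes was 0.004. In 14 of the 31 every shRB library lay above every shCON library, or 45.2%, against 21.0% of all tested genes, and in 0 did every shRB library lie below, against 20.2%. Summed over the 31 genes, the level was 3759, 3595 and 3712 CPM in shRB 1 to 3, against 3397, 3261 and 3248 CPM in shCON 1 to 3, so the groups did not overlap. Summed luminal markers were at 6370 to 6640 CPM in shRB and 6920 to 7180 CPM in shCON (4 of 13 higher, 3 lower), and summed stromal markers at 13.0 to 16.9 CPM in shRB and 18.3 to 22.2 CPM in shCON; their part in these changes was not tested. In bulk RNA a change in the share of growing cells and a change in RNA per cell cannot be told apart. Without shCON 3, the shallowest library, 3 genes rose (8.20% of all tested genes were then higher), and without shRB 2, 14 rose (17.5% of all tested genes). At an adjusted p under 0.01, 3 rose (6.72% of all tested genes). With the replicate number as a block, 17 rose (18.8% of all tested genes), although the numbers were not taken to pair the libraries.

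**Figure D1:**
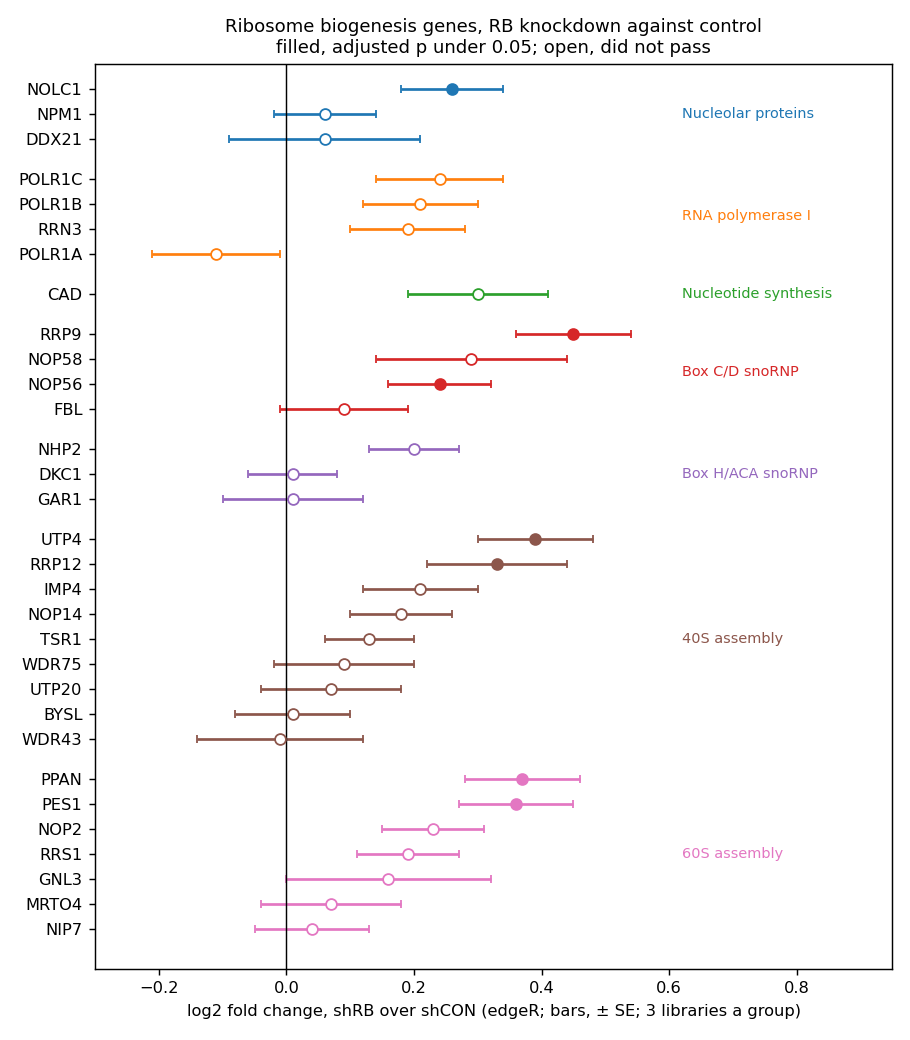
Log2 fold change of the 31 tested genes, shRB over shCON, grouped by role, with bars of ± SE from edgeR over 3 libraries a group. Filled points are the 7 genes with an adjusted p under 0.05, which lie between 0.24 and 0.45, and POLR1A at −0.11 is the lowest point.

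The firmest rises were in RRP9, UTP4 and PES1, which kept their calls under all 16 alternative fits. RRP9 is the U3-specific protein of the U3 snoRNP, the box C/D particle that guides early cuts of the precursor rather than methylation. It measured 66.56, 70.13 and 62.32 CPM in shRB 1 to 3, against 48.50, 51.74 and 44.60 CPM in shCON 1 to 3. All shRB libraries lay above all shCON libraries, and the log2 fold change was 0.45 ± 0.09 (SE; edgeR adjusted p = 0.0025). UTP4 (cirhin) belongs to the processome subcomplex that joins the nascent precursor first. Its level was 70.66, 85.41 and 76.82 CPM in shRB 1 to 3, against 58.61, 57.77 and 62.08 CPM in shCON 1 to 3. The groups again did not overlap, with a log2 fold change of 0.39 ± 0.09 (SE; edgeR adjusted p = 0.0063). PES1 (pescadillo) is the scaffold of the PeBoW complex, which it forms with BOP1 and WDR12 for maturation of the 60S subunit. It reached 146.1, 179.2 and 156.3 CPM in shRB 1 to 3, against 118.4, 131.0 and 125.6 CPM in shCON 1 to 3. The lowest shRB library was above the highest shCON library, and the log2 fold change was 0.36 ± 0.09 (SE; edgeR adjusted p = 0.0078). Without shCON 1 the call of PES1 was at the edge, with an edgeR adjusted p that rounded to 0.05. GENCODE names 2 PES1 pseudogenes with which reads may be shared. The median log2 fold change of the 10 tested genes on each side was 0.21 for RRP9, 0.17 for PES1 and −0.02 for UTP4, and the part of these neighbourhoods in the rises of RRP9 and PES1 was not tested.

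The promoter windows of these 3 genes, and of GAR1 as a gene near no change, are shown because each holds the E-box letters CACGTG close to the start of transcription. Each runs from 250 bases before to 50 bases after a RefSeq start (build GRCh38.p14, not the build named for the deposited data), 5′ to 3′ on the gene's strand, with CACGTG in capitals.
RRP9 promoter window (chr3:51941855-51942154, minus strand): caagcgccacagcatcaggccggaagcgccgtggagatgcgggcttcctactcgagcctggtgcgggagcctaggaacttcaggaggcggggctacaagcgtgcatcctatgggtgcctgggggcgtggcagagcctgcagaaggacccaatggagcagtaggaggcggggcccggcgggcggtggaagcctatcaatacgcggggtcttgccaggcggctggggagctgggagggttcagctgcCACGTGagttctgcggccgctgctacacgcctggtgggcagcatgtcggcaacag
UTP4 promoter window (chr16:69132399-69132698, plus strand): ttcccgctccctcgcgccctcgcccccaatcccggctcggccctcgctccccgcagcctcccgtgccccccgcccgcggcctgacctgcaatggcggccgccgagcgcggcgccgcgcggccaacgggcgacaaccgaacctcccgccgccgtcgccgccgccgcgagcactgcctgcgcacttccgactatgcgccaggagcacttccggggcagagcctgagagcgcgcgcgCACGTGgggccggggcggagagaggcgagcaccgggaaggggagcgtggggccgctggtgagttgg
PES1 promoter window (chr22:30591861-30592160, minus strand): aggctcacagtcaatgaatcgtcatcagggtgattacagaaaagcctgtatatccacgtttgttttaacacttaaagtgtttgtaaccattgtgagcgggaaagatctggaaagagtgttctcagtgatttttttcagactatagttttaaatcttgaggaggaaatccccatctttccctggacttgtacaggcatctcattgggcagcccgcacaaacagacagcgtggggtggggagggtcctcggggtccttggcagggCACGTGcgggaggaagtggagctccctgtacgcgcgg
GAR1 promoter window (chr4:109815512-109815811, plus strand): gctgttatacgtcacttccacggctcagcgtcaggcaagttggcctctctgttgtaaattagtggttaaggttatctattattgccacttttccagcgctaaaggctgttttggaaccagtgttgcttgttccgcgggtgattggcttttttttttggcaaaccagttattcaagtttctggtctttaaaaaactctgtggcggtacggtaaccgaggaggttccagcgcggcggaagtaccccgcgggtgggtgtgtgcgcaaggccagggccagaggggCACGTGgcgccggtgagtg

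In these windows the E-box letters begin 5 bases before the start in RRP9 and 16 before it in UTP4, at base 14 after it in PES1 and at base 32 in GAR1. CACGTG reads the same on both strands, so 1 search covers both. RefSeq windows were at hand for 27 of the 31 tested genes, some with several starts, and 14 of the 27 held the E-box (51.85%), against 13.13% of 9035 tested genes with a window. By window it was in 14 of 35, against 9.63% of 13290 windows of tested genes, and 7.26% of all 35114 windows of this length held it. The listed genes are known for MYC control, so the share describes the list and is not a result of these libraries. Among the genes that rose, 3 of 5 with a window held the E-box, and among those that did not pass, 11 of 22. GAR1 held the E-box in the window shown but not in the window of its other start. It measured 28.68, 33.84 and 30.92 CPM in shRB 1 to 3, against 31.07, 27.93 and 34.47 CPM in shCON 1 to 3. These ranges overlapped. The other genes with the letters in at least 1 window were BYSL, DDX21, FBL, GNL3, IMP4, MRTO4, NOP14, NOP2, UTP20 and WDR43. The E2F letters TTTCGCGC or TTTGGCGC, on either strand, were in 0 of the 35 windows, against 1.73% of windows of tested genes and 1.15% of all windows. These matches are letters in a short window, not binding sites. The windows of NOLC1, NOP58, RRP12 and RRS1 were not examined.

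Among the box C/D proteins, which carry out ribose methylation, NOP56 rose. This scaffold protein gene measured 185.4, 201.3 and 190.8 CPM in shRB 1 to 3, against 174.5, 157.8 and 153.7 CPM in shCON 1 to 3. The groups were close but did not overlap, with a log2 fold change of 0.24 ± 0.08 (SE; edgeR adjusted p = 0.030), and the call was lost without shCON 2, shCON 3 or shRB 3. GENCODE names 3 NOP56 pseudogenes with which reads may be shared. The 10 tested neighbours of NOP56 on each side had a median of 0.19. Its paralogue and partner NOP58 did not pass at 0.29 ± 0.15 (SE; edgeR adjusted p = 0.16). NOP58 had 100.9, 63.98 and 101.7 CPM in shRB 1 to 3, against 79.48, 63.39 and 74.34 CPM in shCON 1 to 3. Only shRB 2 fell inside the shCON range, and the value without that library is given below. FBL (fibrillarin), the methyltransferase of the particle, was at 253.2, 321.9 and 249.5 CPM in shRB 1 to 3, against 243.9, 275.1 and 257.2 CPM in shCON 1 to 3. For FBL shRB 2 was instead the highest of all 6 libraries, the groups overlapped, and the log2 fold change was 0.09 ± 0.10 (SE; edgeR adjusted p = 0.55).

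None of the 3 box H/ACA genes passed. DKC1 (dyskerin), the pseudouridine synthase, was among the steadiest genes of the set, with 151.2, 149.1 and 147.3 CPM in shRB 1 to 3, against 148.1, 149.3 and 146.7 CPM in shCON 1 to 3. Its log2 fold change was 0.01 ± 0.07 (SE), and GAR1 of the same particle was at 0.01 ± 0.11 (SE). The core protein gene NHP2 had 201.8, 217.0 and 199.2 CPM in shRB 1 to 3, against 176.4, 188.3 and 173.3 CPM in shCON 1 to 3. Here all shRB libraries exceeded all shCON libraries, yet the value of 0.20 ± 0.07 (SE; edgeR adjusted p = 0.059) stayed above the threshold. Exons of RMND5B on the opposite strand cover 43.8% of the counted NHP2 transcript, and since the labels do not say whether counting used strand, the NHP2 count is uncertain.

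Of the nucleolar proteins, NOLC1 (Nopp140), a scaffold that binds snoRNPs of both classes, rose. It measured 270.2, 229.3 and 262.5 CPM in shRB 1 to 3, against 222.2, 207.7 and 207.3 CPM in shCON 1 to 3, with shRB 2 the nearest to the shCON range. The log2 fold change was 0.26 ± 0.08 (SE; edgeR adjusted p = 0.029). The call was lost when any library but shRB 2 was left out. NPM1 (nucleophosmin), the most abundant of the 31 genes, had 780.5, 678.6 and 728.5 CPM in shRB 1 to 3, against 749.7, 654.7 and 688.5 CPM in shCON 1 to 3. These ranges overlapped (log2 fold change 0.06 ± 0.08, SE), and GENCODE names 45 NPM1 pseudogenes with which reads may be shared. The RNA helicase gene DDX21 had 235.6, 137.9 and 226.5 CPM in shRB 1 to 3, against 209.4, 174.8 and 192.6 CPM in shCON 1 to 3. Thus shRB 2 was the lowest and shRB 1 and 3 the highest of the 6 libraries, and the log2 fold change over all 6 was 0.06 ± 0.15 (SE; edgeR adjusted p = 0.82).

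RNA polymerase I genes did not pass, and their values were unequal. POLR1B, the gene of the next-to-largest subunit, had 45.62, 43.71 and 47.25 CPM in shRB 1 to 3, against 39.22, 38.18 and 40.52 CPM in shCON 1 to 3. POLR1C, whose product is shared with RNA polymerase III, had 33.51, 35.22 and 33.34 CPM in shRB 1 to 3, against 27.05, 30.94 and 28.59 CPM in shCON 1 to 3. Both sets of shRB libraries lay wholly above shCON, with log2 fold changes of 0.21 ± 0.09 and 0.24 ± 0.10 (SE; edgeR adjusted p of 0.091 and 0.085). POLR1A, the gene of the largest and catalytic subunit, was lower at 29.23, 28.75 and 26.96 CPM in shRB 1 to 3, against 31.91, 32.05 and 26.79 CPM in shCON 1 to 3. Its groups overlapped (−0.11 ± 0.10, SE; edgeR adjusted p = 0.48), and it was the lowest fold change of the set. RRN3, the initiation factor that makes the polymerase able to start, was at 0.19 ± 0.09 (SE; edgeR adjusted p = 0.15), with reads possibly shared with 2 named pseudogenes. CAD, the enzyme that opens pyrimidine synthesis and a much-used MYC target, had 76.03, 97.61 and 77.59 CPM in shRB 1 to 3, against 65.34, 76.35 and 61.10 CPM in shCON 1 to 3. The libraries shRB 2 and shCON 2 were the highest of their groups, and with a narrow overlap the log2 fold change was 0.30 ± 0.11 (SE; edgeR adjusted p = 0.058). Without shRB 2 it was 0.19 ± 0.08 (SE; edgeR adjusted p = 0.064).

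Factors of 40S assembly had a median log2 fold change of 0.13, with 2 of 9 higher (22.2%, against 12.8% of all tested genes) and 0 lower. Beside UTP4 the rise was in RRP12, known in yeast for export of both subunits. RRP12 had 73.76, 93.15 and 86.77 CPM in shRB 1 to 3, against 66.12, 75.35 and 58.98 CPM in shCON 1 to 3. It is the 1 gene of the 7 whose groups overlapped, shRB 1 lying just under shCON 2 (0.33 ± 0.11, SE; edgeR adjusted p = 0.035), and its call was lost without shCON 1, shCON 3 or shRB 3. IMP4, a U3 snoRNP protein gene, and NOP14, of the small subunit processome, were at 0.21 ± 0.09 and 0.18 ± 0.08 (SE; edgeR adjusted p of 0.086 and 0.10) with no overlap between groups. TSR1, a late 40S factor, was at 0.13 ± 0.07 (SE), also without overlap. Opposite-strand genes cover 17.1% of the NOP14 and 22.1% of the TSR1 transcript. The processome genes WDR43, WDR75 and UTP20 and the 40S maturation gene BYSL lay between −0.01 and 0.09. WDR43 is an example of the spread: 64.65, 42.86 and 62.13 CPM in shRB 1 to 3 stood on both sides of 59.10, 54.35 and 57.02 CPM in shCON 1 to 3.

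Factors of 60S assembly had a median log2 fold change of 0.19, with 2 of 7 tested genes higher (28.6%, against 12.8% of all tested genes) and 0 lower. Beside PES1 the rise was in PPAN, the human counterpart of yeast Ssf1, at 59.28, 69.28 and 56.82 CPM in shRB 1 to 3, against 48.94, 48.62 and 45.75 CPM in shCON 1 to 3. The groups did not overlap (0.37 ± 0.09, SE; edgeR adjusted p = 0.012), and the call was lost without shCON 3. The read-through gene PPAN-P2RY11 shares 87.3% of the counted PPAN transcript, so the count cannot be given to PPAN alone. NOP2, an rRNA cytosine methyltransferase, narrowly missed the threshold at 0.23 ± 0.08 (SE; edgeR adjusted p = 0.051), with 87.96, 95.91 and 91.21 CPM in shRB 1 to 3, against 73.19, 77.06 and 84.63 CPM in shCON 1 to 3. Its groups did not overlap, and 83.5% of its transcript is shared with the overlapping gene model AC006064.6. RRS1, which helps bring the 5S ribosomal RNA particle into the 60S precursor, was steady within each group and at 0.19 ± 0.08 (SE; edgeR adjusted p = 0.092). MRTO4 and NIP7 were at 0.07 ± 0.11 and 0.04 ± 0.09 (SE). GNL3 (nucleostemin), a nucleolar GTPase, had 160.7, 89.23 and 145.0 CPM in shRB 1 to 3, against 127.9, 108.1 and 118.3 CPM in shCON 1 to 3, so that shRB 2 was the lowest and shRB 1 the highest of the 6.

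Per length, the 31 genes spanned 108-fold from NPM1 to UTP20. Levels here are CPM per kb of the counted transcript, as mean ± SD over 3 libraries. NPM1 stood at 415 ± 29 in shRB and 397 ± 27.4 in shCON, and UTP20, with the longest counted transcript of the set, at 3.87 ± 0.505 in shRB and 3.68 ± 0.181 in shCON. FBL (237 ± 35.1 in shRB and 223 ± 13.5 in shCON) and NHP2 (238 ± 11.1 in shRB and 207 ± 9.12 in shCON) came next and overlapped each other in both groups. Levels within 1 particle were unequal in both groups. The ratio of FBL to NOP56 per kb was 2.83, 3.31 and 2.71 in shRB 1 to 3, against 2.89, 3.61 and 3.46 in shCON 1 to 3, and that of NHP2 to DKC1 was 3.98, 4.34 and 4.03 in shRB, against 3.55, 3.76 and 3.52 in shCON. Within RNA polymerase I, POLR1C (25.1 ± 0.77 in shRB and 21.3 ± 1.45 in shCON) stood above POLR1B (9.99 ± 0.388 in shRB and 8.62 ± 0.257 in shCON) and POLR1A (4.39 ± 0.186 in shRB and 4.69 ± 0.464 in shCON). These levels depend on the length of the counted transcript and on GC content, and are not protein ratios.

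**Figure D2:**
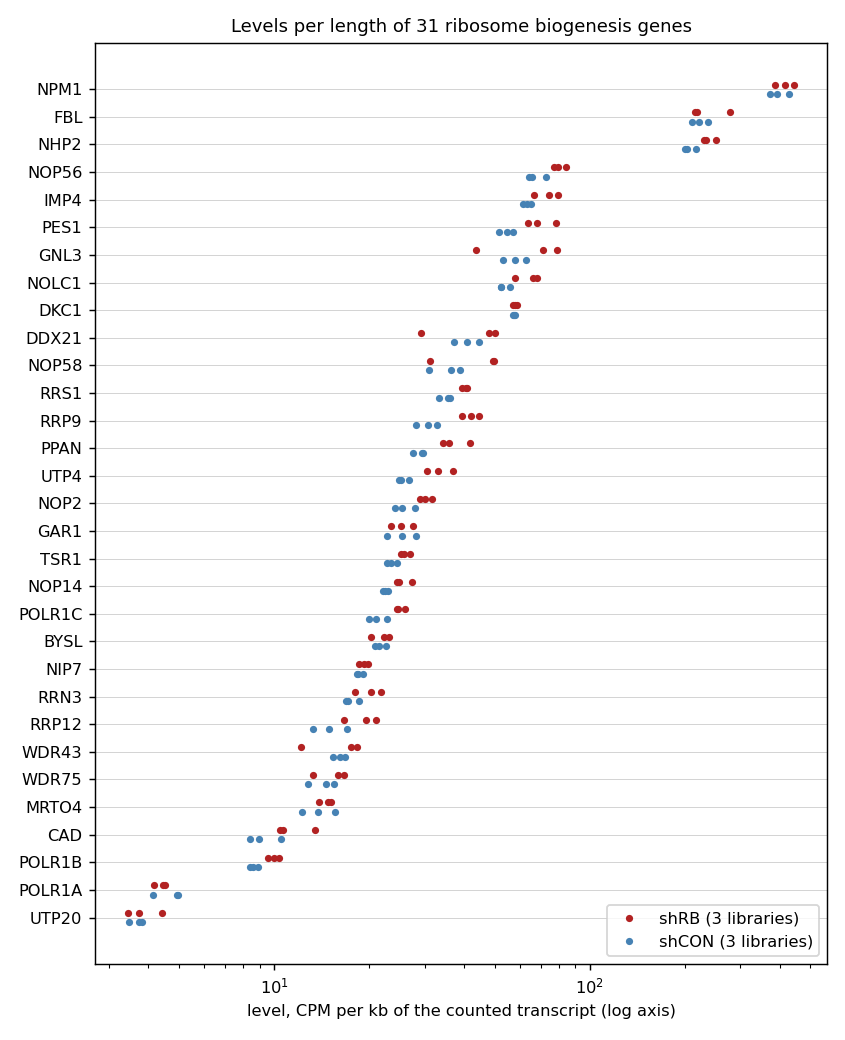
Level of each gene in every library, in CPM per kb of the counted transcript on a log axis, shRB libraries above shCON libraries in each row. The order runs from NPM1, at 415 in shRB and 397 in shCON, to UTP20 at 3.87 and 3.68, and the gap between genes is far wider than the gap between groups.

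The genes varied among libraries by GC content. Over the 31 genes transcript GC correlated with the deviation of shRB 2 from the shRB mean at a Spearman value of 0.831, against −0.592 in shRB 1 and −0.802 in shRB 3, and −0.554, 0.638 and −0.331 in shCON 1 to 3. This is across genes of the same libraries, which are not independent. Of the 15 genes under the median GC of the set (39.3% to 50.5%), shRB 2 was the lowest shRB library in 11, with a median log2 ratio of −0.22 to the mean of shRB 1 and 3. Of the 15 genes over it (51.3% to 63.2%) it was the lowest in 1, with a median of 0.12. The largest gaps were in GNL3 (−0.78), DDX21 (−0.74), NOP58 (−0.66) and WDR43 (−0.56), whose transcripts have 43.5%, 40.2%, 41.3% and 40.3% GC. Among the 15 genes with less GC 2 rose, and among the 15 with more GC 5 rose, where 12.8% of all tested genes rose. The share of all tested genes by GC content is not given here, so these counts are not read as an effect of GC. The part of GC content in each fold change was not tested beyond the fits below.

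**Figure D3:**
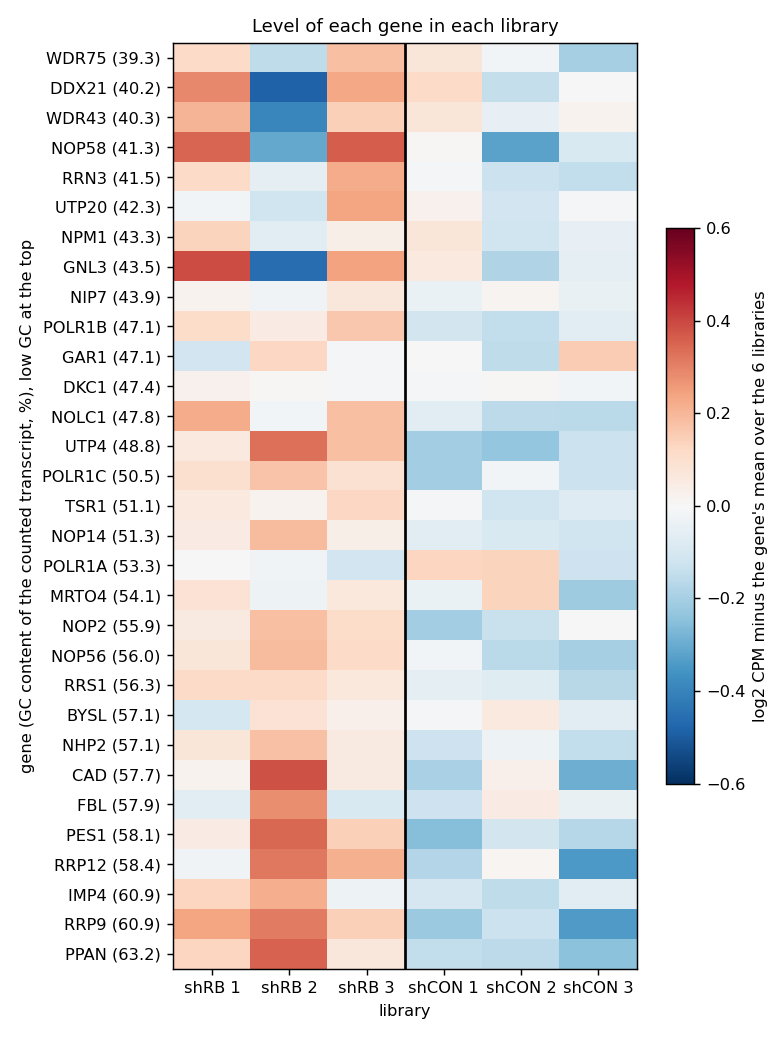
Log2 CPM of each gene in each library minus the gene's mean over the 6 libraries, genes ordered by the GC content of the counted transcript. The shRB 2 column runs from low in the GC-poor genes at the top (DDX21, NOP58 and GNL3) to high in the GC-rich genes at the bottom, while shRB 1 and shRB 3 do not.

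**Figure D4:**
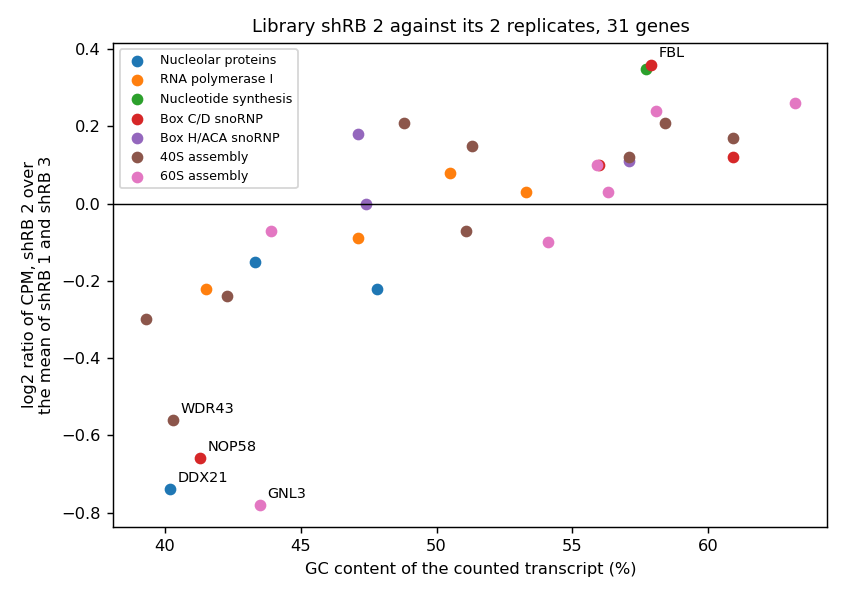
Log2 ratio of CPM in shRB 2 to the mean of shRB 1 and shRB 3 against transcript GC content in percent, 1 point per gene, coloured by role. GNL3, DDX21, NOP58 and WDR43 lie lowest, between −0.78 and −0.56, and FBL is near the top at 0.36.

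Without shRB 2, 14 of the 31 genes rose and 0 fell, or 45.2% higher, against 17.5% of all tested genes. These were the same 7 and 7 more: NOP58, GNL3, DDX21, RRN3, POLR1B, NOP2 and NHP2, of which 5 have under 50% GC. The median stayed at 0.19. The fit kept shCON 2, whose deviation also rose with GC content (Spearman value of 0.638 over the 31 genes). GC trends were therefore not balanced between the groups in it, and their part in these calls was not tested. NOP58 was at 0.48 ± 0.08 (SE; edgeR adjusted p = 1.3e-06), GNL3 at 0.37 ± 0.07 (adjusted p = 3.6e-05) and DDX21 at 0.27 ± 0.07 (adjusted p = 0.0015). The 10 tested genes on each side of GNL3, which lies on chromosome 3 like RRP9, had a median of 0.29 in the fit of all libraries, and the 663 tested genes of that chromosome had a median of 0.153. RRN3 was at 0.26 ± 0.08 (adjusted p = 0.0069) and POLR1B at 0.25 ± 0.09 (adjusted p = 0.023). FBL was at −0.03 ± 0.07 in that fit, so the sign of its small value turned. With all 6 libraries and the GC trend of each removed, a fit chosen after seeing the data, 16 of the 31 rose and 0 fell, or 51.6%, against 19.9% of all tested genes. The same 7 were again among them, with NOP58 at 0.35 ± 0.09 (adjusted p = 0.0046) and CAD at 0.25 ± 0.07 (adjusted p = 0.0089). GNL3 and DDX21, at 0.19 ± 0.11 and 0.11 ± 0.09 (SE), did not pass there. Across the 3 fits 18 genes rose at least once, and POLR1A, DKC1, GAR1, BYSL, FBL, NPM1, MRTO4 and NIP7 were among the 13 that did not. The share of all tested genes that rose at least once in these fits was not counted. The 18 are therefore not read as a result about the set.

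**Figure D5:**
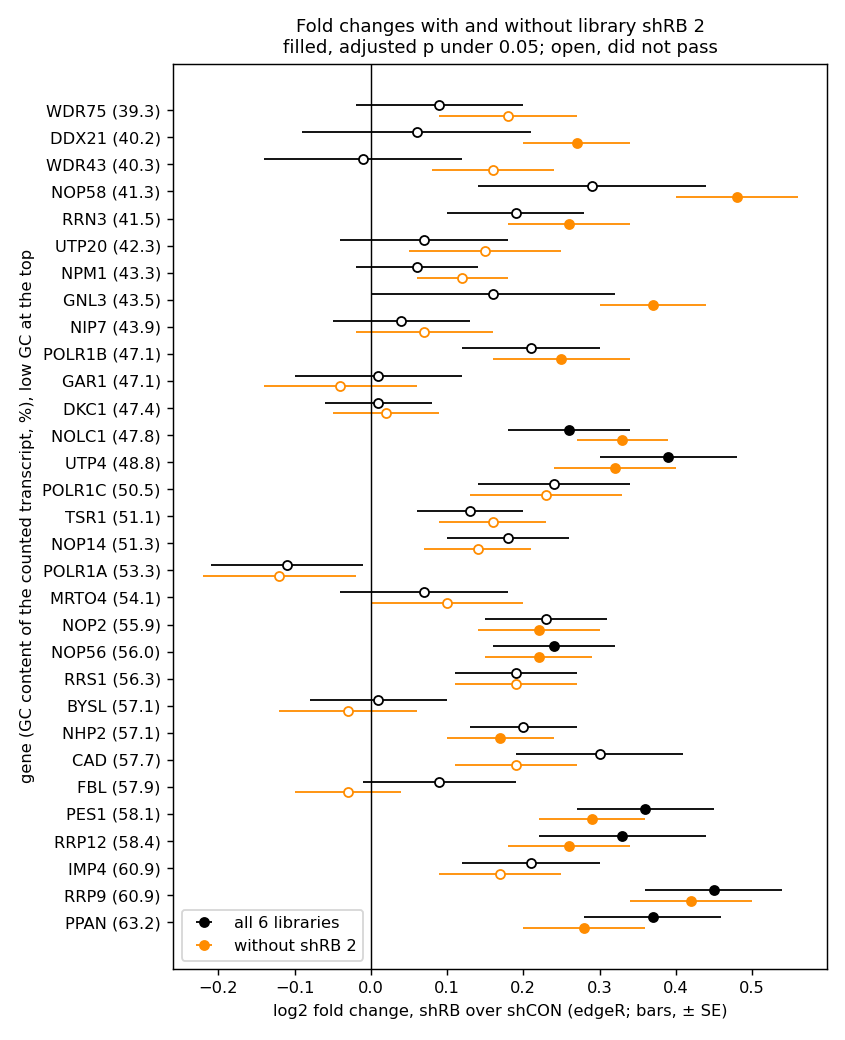
Log2 fold change of each gene with all 6 libraries and without shRB 2, with bars of ± SE and genes ordered by transcript GC content, filled where the adjusted p was under 0.05. The values of NOP58, GNL3 and DDX21 lie further to the right without shRB 2, at 0.48, 0.37 and 0.27, while those of GC-rich genes such as PPAN and FBL lie further to the left.

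Other genes of the pathway were counted in the same fit, in which 12.8% of all tested genes rose and 12.5% fell, and again without shRB 2, in which 17.5% rose and 16.5% fell. Of 31 further 40S and processome factors, 5 rose, 0 fell and 26 did not pass (16.1% higher, near the share of all tested genes, median 0.09), and without shRB 2, 10 rose and 0 fell (32.3% higher). UTP25 was at 0.62 ± 0.11 (SE; 41.0 ± 3.31 CPM in shRB and 26.4 ± 3.46 CPM in shCON; edgeR adjusted p = 0.0013). Of 36 further 60S factors, 5 rose, 3 fell and 28 did not pass (13.9% higher, near the share of all tested genes, median 0.05), and without shRB 2, 9 rose and 4 fell. Among these the helicase gene DDX56 rose by 0.35 ± 0.07, while the helicase gene DDX18 fell to 69.1 ± 10.7 CPM in shRB, against 103 ± 12.7 CPM in shCON (−0.58 ± 0.12, SE; edgeR adjusted p = 0.0028). The other falls, named after their values were seen, were NMD3, the 60S export adaptor (−0.68 ± 0.15), and RRP1B (−0.42 ± 0.09), whose tested neighbours had a median of −0.31. Further snoRNP components and assembly factors had the highest share of rises among these 7 pathway lists. Of 13, 4 rose, 0 fell and 9 did not pass (30.8% higher, against 12.8% of all tested genes, median 0.02), and without shRB 2, 5 rose and 0 fell (38.5% higher). RUVBL1, an ATPase that helps assemble the particles, reached 214 ± 2.53 CPM in shRB, against 149 ± 7.68 CPM in shCON (0.52 ± 0.07, SE; edgeR adjusted p = 0.00015). SNU13, which binds the box C/D RNA directly, was at 275 ± 22.0 CPM in shRB and 206 ± 6.10 CPM in shCON (0.41 ± 0.08, SE; edgeR adjusted p = 0.0015), and the others, seen after the values, were NAF1 and SHQ1 of H/ACA assembly (0.40 ± 0.13 and 0.43 ± 0.11). The genes around RUVBL1 and SNU13 had medians of 0.18 and 0.22.

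Of 17 further genes of RNA polymerase I transcription, 2 rose, 1 fell and 14 did not pass (11.8% higher, against 12.8% of all tested genes, median 0.15), and without shRB 2, 5 rose and 1 fell (29.4% higher, against 17.5%). POLR2H, a subunit shared by all 3 nuclear polymerases, rose by 0.41 ± 0.08, and the nucleolar factor TCOF1 (treacle), named after its values were seen, by 0.49 ± 0.10 (SE; edgeR adjusted p of 0.0024 and 0.0031). The fall was in CAVIN1, at 14.1 ± 1.84 CPM in shRB and 33.9 ± 3.72 CPM in shCON (−1.27 ± 0.13, SE; edgeR adjusted p = 9.5e-06), a gene described both as a transcript release factor of RNA polymerase I and as a coat protein of caveolae. Of 12 exosome genes 1 rose with all libraries (8.33% higher, against 12.8% of all tested genes, median 0.14) and 4 without shRB 2 (33.3% higher, against 17.5%). The 1 with all libraries was the helicase gene MTREX at 207 ± 8.07 CPM in shRB and 146 ± 6.62 CPM in shCON. Cytosolic ribosomal protein genes, of which 64 were tested, had 1 that rose and 2 that fell (1.56% higher, against 12.8% of all tested genes, median −0.04). Without shRB 2, 1 of the 64 rose (1.56%, against 17.5% of all tested genes) and 21 of the 64 fell (median −0.12). Of all tested genes 16.5% were lower in that fit. With all libraries 2 fell, so the count of falls turns on shRB 2. RPL28 had 769 ± 112 CPM in shRB and 1090 ± 77.8 CPM in shCON (−0.51 ± 0.10, SE; edgeR adjusted p = 0.0022), and the rise, named after its values were seen, was in RPSA (0.35 ± 0.08, SE). Many ribosomal protein genes have near-identical pseudogenes.

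Partners and antagonists of MYC numbered 10 tested genes, with 2 higher, 1 lower and a median of −0.04, where 12.8% of all tested genes rose and 12.5% fell. Without shRB 2, 2 rose and 2 fell, where 17.5% of all tested genes rose and 16.5% fell. MLX, a dimer partner in the wider network, measured 141.4, 142.0 and 132.2 CPM in shRB 1 to 3, against 113.2, 112.8 and 105.4 CPM in shCON 1 to 3, without overlap (0.32 ± 0.07, SE; edgeR adjusted p = 0.0058). MXI1, a MAX partner that opposes MYC, measured 80.40, 71.51 and 88.12 CPM in shRB 1 to 3, against 104.6, 94.74 and 105.9 CPM in shCON 1 to 3. All shRB libraries were lower (−0.35 ± 0.09, SE; edgeR adjusted p = 0.013), whereas MXD3, another antagonist, named after its values were seen, rose (0.29 ± 0.09, SE; edgeR adjusted p = 0.033), with 0.19 ± 0.07 without shRB 2. MXI1 and MXD3 thus moved in opposite directions, while 7 of the 10 tested partners and antagonists did not pass.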

How the data were processed

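Counts were used as deposited: the authors deposited raw read counts per transcript ID, without normalization. Per the submitters' processing notes, STAR, HOMER, edgeR and hg19 were involved; their versions and roles, the annotation and strandedness: not given in the sources used here. Of 22279 IDs, 22182 matched GENCODE release 29, which describes another build and served for names, gene order, exon overlap, length and GC content; unmatched IDs held 0.377% of counts. The members and lists were chosen with earlier results of these data known. Rows were kept by filterByExpr (minimum count 10, minimum total 15), scaled by TMM and tested with edgeR 4.0.16 (R 4.3.3, quasi-likelihood F test, group as the only term), with Benjamini-Hochberg adjustment over 11712 rows and a threshold of 0.05. The SE of a log2 fold change is its size over the square root of F. Counts per tested member ran from 164 to 15272 per library. Pairs of replicates had a chi-square of 2.23 to 11.4 for each degree of freedom, above sampling noise, so none was merged. Named genes were RB1, all members, and the 2 genes of smallest p in each list; others are identified in the text. To remove the GC trend, each library's log2 deviation was fitted on transcript GC by loess (span 0.5) and used as an offset; this also removes any GC trend between groups. That fit and the counts of the other pathway lists without shRB 2 were chosen after seeing the data. Alternatives were DESeq2 1.42.0, limma-voom (limma 3.58.1), other normalizations and filters, a replicate block, each library left out, and a threshold of 0.01. The edgeR, DESeq2 and limma-voom fits were tested on simulated counts that held no GC trend. Recovery was required only of changes larger than those of the members, and the fit with the GC trend removed was not simulated. Promoter windows are RefSeq's. Some single genes of the lists are not reported here.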

Additional observations from a re-analysis of the deposited data

How the results depend on the processing

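The median of the 31 genes ranged from 0.156 to 0.189 over all alternatives, RB1 stayed between −3.555 and −3.275, and no member was called lower under any of them. The number called higher was 7 by DESeq2, 8 by limma-voom, 6 with library totals only, 9 without a filter, 3 at a threshold of 0.01, 16 with the GC trend removed and 19 with it removed and shRB 2 left out (21.3% of all tested genes were then higher). With 1 library left out it ranged from 3 to 14. RRP9, UTP4 and PES1 passed in every fit. Over all genes, higher and lower calls were 1499 and 1459, 787 and 793 at a threshold of 0.01, 2335 and 2243 with the GC trend removed, 2535 and 2375 with it removed and shRB 2 left out, and with 1 library left out 863 to 2074 higher and 912 to 1956 lower. Higher calls over all genes were 1266 by DESeq2, 1491 by limma-voom and 1379 with library totals only, of 11712 tested rows. They were 1641 of 16586 rows without a filter.

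The replicate block called 17 members (18.8% of all tested genes) and 2203 higher and 2294 lower genes in all. Same-numbered deviations correlated at 0.27, 0.39 and 0.0022, and not every library correlated best with its own number, so the numbers were not taken as pairs. The cause of these differences was not tested.

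Signs turned only in 8 genes, none of which passed with all libraries or where its sign had turned. With upper quartile scaling DKC1, GAR1 and BYSL were −0.014, −0.019 and −0.017, with library totals −0.006, −0.013 and −0.009. GAR1 was −0.001 with the stricter filter and −0.001 with the replicate block. With the GC trend removed WDR43 was 0.057 and BYSL −0.042, and with shRB 2 also left out FBL was −0.023, WDR43 0.150, GAR1 −0.047 and BYSL −0.029. With 1 library left out, values ranged from −0.112 to 0.162 in WDR43, −0.060 to 0.079 in GAR1, −0.077 to 0.268 in DDX21, −0.026 to 0.063 in BYSL, −0.011 to 0.375 in GNL3, −0.031 to 0.154 in FBL and −0.033 to 0.152 in UTP20.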
